A study of Homo sapiens with 4 samples.

Results

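The stemness markers examined here are 10 genes that are widely used to find or describe stem-like cancer cells. They are the surface proteins CD44, CD24, PROM1 (CD133) and EPCAM, the receptors LGR5 and MET, the transcription factors KLF4 and SOX2, the RNA-binding protein LIN28B and the chromatin protein BMI1. They were taken by symbol from the 58174 named genes of the deposited table, and each of the 10 was found in 1 row. RNA had been sequenced from SW1990 and PANC-1 cells, 2 established human pancreatic cancer lines, without radiation (Ctrl, 0 Gy) and after 10 Gy of X-rays (Rad). Both lines had been used at passages 14 to 16 and grown with fetal bovine serum, SW1990 in RPMI and PANC-1 in DMEM medium, so line and medium cannot be told apart. There was 1 library for each line and treatment, 4 in all, and the time from radiation to RNA collection is not given in the sources used here. Counts over all rows of the table summed to 17939210 in SW1990 Ctrl, 18388969 in SW1990 Rad, 23451153 in PANC-1 Ctrl and 20154644 in PANC-1 Rad. With 1 library per condition no difference has a replicate check. Intervals below are 95% intervals that cover counting error only.

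Stemness markers are a mixed group. CD44 binds hyaluronan, CD24 is a small glycosylated protein anchored in the membrane, PROM1 sits in membrane protrusions, and EPCAM is an adhesion protein of epithelial cells. LGR5 binds R-spondins and strengthens Wnt signaling, and MET is the receptor tyrosine kinase for hepatocyte growth factor (HGF). KLF4 and SOX2 are used to reprogram cells to pluripotency, LIN28B blocks the maturation of let-7 miRNAs, and BMI1 is a subunit of Polycomb repressive complex 1. In pancreatic cancer, cells with CD44, CD24 and EPCAM at their surface, or with PROM1, have been described as tumor-initiating. Transcript levels in a bulk library do not show how many cells carry a marker. A smaller share of marker-bearing cells and less RNA per cell cannot be told apart here.

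Both lines expressed epithelial keratins, and they differed in other epithelial and in mesenchymal genes. KRT8 had 1352, 1888, 786 and 851 FPKM (fragments scaled to transcript length and library size) in SW1990 Ctrl, SW1990 Rad, PANC-1 Ctrl and PANC-1 Rad. KRT18 had 944, 1062, 468 and 539 FPKM in the same order. VIM, an intermediate filament gene of mesenchymal cells, had 17 and 0 counts in SW1990 and 82406 and 75166 counts in PANC-1. CDH1, the epithelial cadherin (named here after its values were seen), had 140.1, 239, 0.673 and 1.21 FPKM. MUC1, an epithelial mucin of the same list, lay the other way at 2, 3.23, 6.61 and 13.7 FPKM (log2 fold change SW1990 over PANC-1 -2.31 without radiation). All 9 ductal and epithelial markers reached 1 FPKM in both SW1990 libraries, while 6 of 9 in PANC-1 Ctrl and 7 of 9 in PANC-1 Rad did. KRT7, a keratin of pancreatic ducts (named for the same reason), was low, between 5.02 and 6.35 FPKM, in all 4 libraries.

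Markers of other cell types were mostly low, with CD68 and COL1A1 in PANC-1 as the highest. For fibroblasts (7 genes) the summed level was 2.96, 3.88, 9.32 and 11.8 FPKM in the same order of libraries. Their most abundant gene was PDGFRB in SW1990 Ctrl and COL1A1 elsewhere, with 8.44 and 11.01 FPKM in PANC-1, and COL1A2, DCN and PDGFRA had 0 counts throughout. For immune cells (7 genes) the sums were 1.77, 2.25, 19.4 and 15.0 FPKM. CD14 led in SW1990 and CD68 in PANC-1, where CD68 had 18.8 and 13.9 FPKM, and CD3E, CD3D and MS4A1 had 0 counts throughout. Endothelial markers (5 genes) summed to 0.155, 0.309, 6.38 and 5.44 FPKM. KDR made up nearly all of this in PANC-1, VWF reached 0.296 FPKM at most, and TEK had 0 counts throughout. Acinar and islet markers (7 genes) summed to 0.604 and 0.448 FPKM in SW1990, led by PRSS1, and to 0 in PANC-1. CELA3A had 1 count, in SW1990 Rad, and CPA1, CTRB1, INS, GCG and SST had none.

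The surface markers divided the lines. CD44 (ENSG00000026508, chromosome 11, 35138870 to 35232402 on GRCh38) had 968 and 1490 counts in SW1990 Ctrl and Rad, and 18973 and 16649 counts in PANC-1 Ctrl and Rad. Its levels were 25.3, 43.0, 324 and 332 FPKM, and both PANC-1 libraries lay above both SW1990 libraries. In the unirradiated libraries CD44 was 17.4-fold higher in PANC-1 (log2 fold change SW1990 over PANC-1 -4.12, interval -4.22 to -4.03), and in the irradiated libraries 10.8-fold higher. CD24 (ENSG00000272398, chromosome 6, 106969831 to 106975627, minus strand) was the lowest of the 8 markers detected in SW1990. It had 74 and 202 counts in SW1990 and 24 and 54 counts in PANC-1, or 1.52, 4.25, 0.323 and 0.847 FPKM. Its log2 fold change between the unirradiated lines was 1.80 (1.11 to 2.52). CD24 has near-identical pseudogene copies, so its counts are less certain.

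PROM1 and EPCAM were markers of SW1990. PROM1 (ENSG00000007062, chromosome 4, 15963076 to 16084378, minus strand) had 1177 and 1615 counts in SW1990 and 0 counts in both PANC-1 libraries. With the floor of 3 counts, PROM1 was at least 442-fold higher in SW1990 Ctrl and at least 557-fold higher in SW1990 Rad than in the PANC-1 library of the same treatment. EPCAM (ENSG00000119888, chromosome 2, 47345158 to 47387601) had 7348 and 7552 counts in SW1990 and 108 and 113 counts in PANC-1, or 217, 218, 2.28 and 2.81 FPKM. It was 76.6-fold higher in SW1990 without radiation (log2 fold change 6.26, interval 5.99 to 6.55) and 69.1-fold higher after it. In each SW1990 library 99.7% of all named genes had a lower FPKM than EPCAM, and in each PANC-1 library 99.8% had a lower FPKM than CD44.

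The study measured CD44 and CD133 by qPCR in irradiated and unirradiated xenograft tumors derived from patients. Those tumors are not the cells sequenced here, so the assay and these libraries do not read the same material. The primers of the assay show which part of each transcript it reads. They are printed 5′ to 3′ in lower case, with the last 5 bases, at which extension starts, in capitals.
CD44 forward: acaacgcagcagagtaattctCAGAG
CD44 reverse: tccacctgtgacatcattcctATTGC
CD133 forward: cactaccaaggacaaggcgTTCAC
CD133 reverse: tcttcaaggtgctgttcatgtTCTCC
In the transcripts of GENCODE release 29, the CD44 pair was found in 7 of 39 CD44 transcripts, as a product of 120 bases over 3 exons at chr11:35208200-35211268. The CD133 pair was found in 8 of 20 PROM1 transcripts, as a product of 176 bases over 3 exons at chr4:16018490-16024329. Neither pair was found in a transcript of another gene. Of the transcripts of these genes, 26 for CD44 and 10 for PROM1 are protein-coding. The gene counts used here take in all transcripts of a gene, so for both genes the counts and the product do not cover the same set of transcripts.

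Of the receptors, LGR5 followed the pattern of PROM1 and EPCAM, and MET was close between the lines. LGR5 (ENSG00000139292, chromosome 12, 71439770 to 71586310) had 1078 and 768 counts in SW1990 and 2 and 10 counts in PANC-1, or 11.1, 9.04, 0.0143 and 0.0867 FPKM. From the 2 counts of PANC-1 Ctrl, its ratio was 607 with an interval of 168 to 5018, and in the irradiated libraries it was 79.4 (42.9 to 166). MET (ENSG00000105976, chromosome 7, 116672390 to 116798386) had 4107, 4450, 6068 and 4039 counts in SW1990 Ctrl, SW1990 Rad, PANC-1 Ctrl and PANC-1 Rad, and its FPKM values of 51.8, 57.2, 45.3 and 54.8 overlapped between the lines. The log2 fold change of MET between the unirradiated lines was -0.39 (-0.45 to -0.33) from the counts and 0.19 from the FPKM values.

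The transcription factors differed in level from each other. KLF4 (ENSG00000136826, chromosome 9, 107484852 to 107490482, minus strand) had 259, 364, 899 and 485 counts, or 4.88, 6.61, 14.1 and 8.31 FPKM, higher in both PANC-1 libraries than in both SW1990 libraries. Without radiation it was 3.08-fold higher in PANC-1, and with radiation 1.29-fold higher. SOX2 (ENSG00000181449, chromosome 3, 181711924 to 181714436) had 6 counts in PANC-1 Ctrl and 0 in the other three libraries. A count of 0 allows up to 3 counts, a level of 0.168 CPM (counts scaled to library size) in SW1990 Ctrl, 0.164 in SW1990 Rad and 0.150 in PANC-1 Rad. SOX2 was near the limit of detection in all 4 libraries, and no fold change is given for it.

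LIN28B and BMI1 were higher in PANC-1. LIN28B (ENSG00000187772, chromosome 6, 104936616 to 105083332) had 0 counts in both SW1990 libraries and 1215 and 995 counts in PANC-1, or 7.66 and 7.28 FPKM. Against the floor of 3 counts it was at least 359.7-fold lower in SW1990 without radiation and at least 321-fold lower after it. BMI1 (ENSG00000168283, chromosome 10, 22321211 to 22331484) had 828, 947, 1904 and 1689 counts, or 35.4, 24.6, 59.2 and 49.0 FPKM. It was 2.04-fold higher in PANC-1 without radiation and 1.72-fold higher after it. COMMD3-BMI1, a read-through gene on the same strand, shares 23.3% of the exon bases of BMI1 and had 0, 0, 166 and 91 counts, so part of the BMI1 counts in PANC-1 is less certain.

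**Figure D1:**
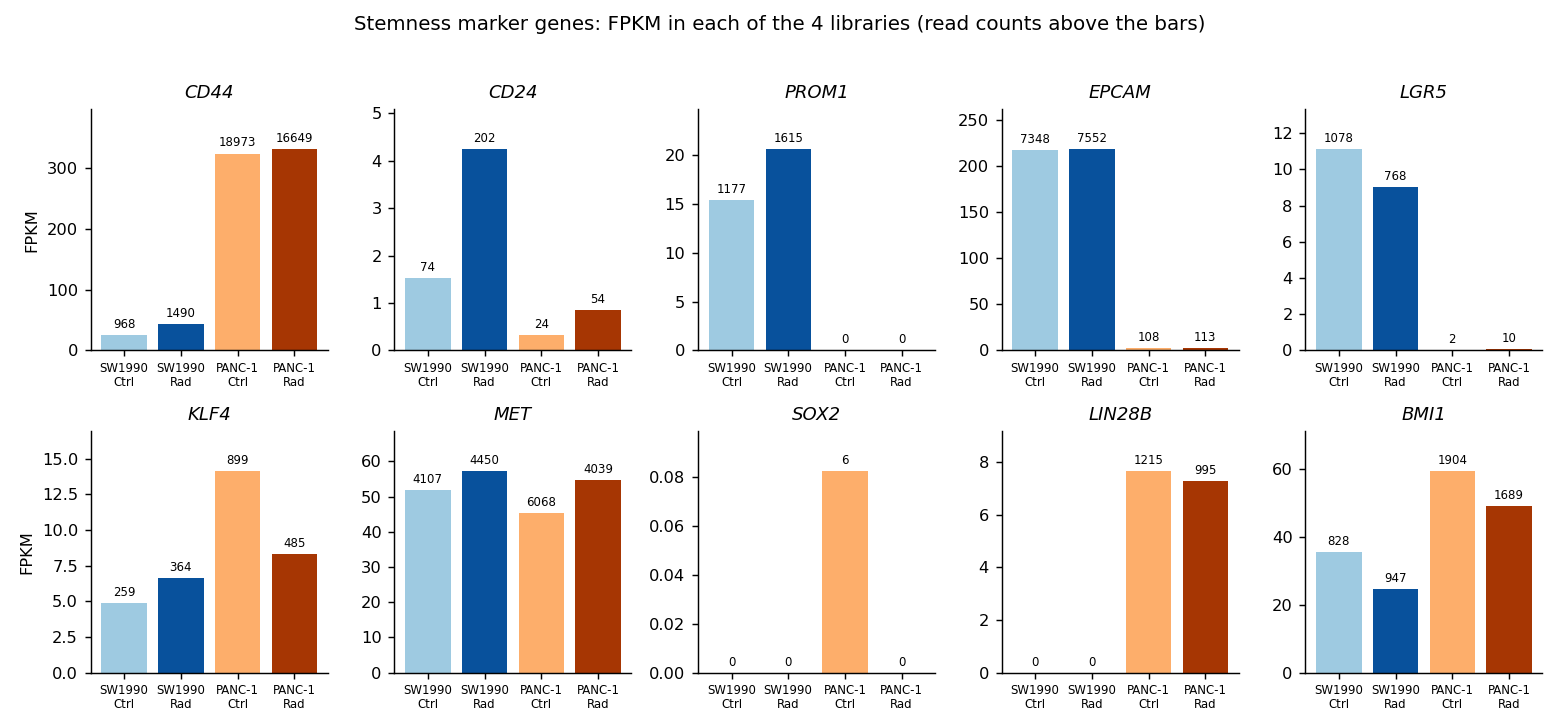
Bars give the FPKM (y axis, starting at 0, own scale for each gene) of the 10 stemness markers in SW1990 Ctrl, SW1990 Rad, PANC-1 Ctrl and PANC-1 Rad, with the read count above each bar, 1 library per bar. PROM1, EPCAM and LGR5 stand out in SW1990, CD44 and LIN28B in PANC-1, and MET is between 45.3 and 57.2 FPKM in all 4 libraries.

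The order of the markers by FPKM, a level scaled to transcript length, was different in the lines. In SW1990 it ran from EPCAM over MET, CD44, BMI1, PROM1, LGR5 and KLF4 to CD24, with LIN28B and SOX2 at 0. The mean levels over the 2 libraries fell from 218 FPKM ± 0.473 (SD, n = 2) for EPCAM to 54.5 ± 3.85 for MET and 34.2 ± 12.5 for CD44, down to 2.88 ± 1.93 for CD24. In PANC-1 it ran from CD44 over BMI1, MET, KLF4, LIN28B, EPCAM and CD24 to LGR5 and SOX2, with PROM1 at 0. Here CD44 had 328 FPKM ± 5.12 (SD, n = 2), BMI1 54.1 ± 7.20 and MET 50.1 ± 6.73. Neighbors whose ranges over the 2 libraries of SW1990 overlapped were CD44 and BMI1, and LIN28B and SOX2 (both at 0). In PANC-1 they were BMI1 and MET, LGR5 and SOX2, and SOX2 and PROM1. The SD here includes radiation, since the libraries of a line differ in treatment.

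The 4 libraries were also fitted together with cell line and treatment as terms (quasi-likelihood test of edgeR, p-values adjusted by Benjamini-Hochberg over 18180 genes, 1 residual degree of freedom). Without replicate libraries, the spread in this fit comes from how far the radiation responses of the lines differ. Its p-values therefore do not measure the line differences against a spread between replicates. By this test 43.6% of all genes differed between the lines at an adjusted p under 0.05. PROM1, LGR5 and LIN28B had passed the filter on low counts only through the line in which they are high, which favors a difference, so no p is given for them. Of the other markers, EPCAM (adjusted p = 0.00076) and CD24 (adjusted p = 0.0138) were higher in SW1990. CD44 (adjusted p = 0.00107) and BMI1 (adjusted p = 0.0114) were higher in PANC-1. The log2 fold changes of this fit, SW1990 over PANC-1, were -3.78 with a standard error of 0.23 for CD44, 6.18 with 0.17 for EPCAM, 1.87 with 0.34 for CD24 and -0.91 with 0.15 for BMI1. KLF4 (log2 fold change -1.0, adjusted p = 0.0786) and MET (-0.10, adjusted p = 0.683) did not pass, and SOX2 was removed by the filter on low counts.

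In the read test of the unirradiated pair (edgeR's exactTest at dispersion 0, with calls where q was under 0.001 and the fold change over 2), 35.9% of 16626 genes were called between the lines, 17.3% higher and 18.6% lower in SW1990. These were 2879 genes higher and 3096 lower, but 3507 and 2565 with scaling by total counts, and 3438 and 2586 with FPKM fold changes. Of the 10 markers, 9 had at least 1 FPKM in 1 of the libraries and entered this test. CD24, PROM1, LGR5 and LIN28B entered through 1 line alone, which favors a call, so the count of calls supports nothing and is given as a description. It was 8 of 9, with CD24, PROM1, EPCAM and LGR5 higher in SW1990, and CD44, KLF4, LIN28B and BMI1 higher in PANC-1. BMI1 was not called with scaling by total counts (log2 fold change -0.82) or FPKM fold changes (-0.74), and CD24 and BMI1 were not called with an assumed coefficient of variation of 0.2 between replicates. In the irradiated pair, where 35.2% of 16819 genes were called (17.2% higher and 18% lower in SW1990), KLF4 and BMI1 were under the limit of 2-fold and 6 markers were called. The direction of MET turned from -0.39 to 0.19 between these pairs.

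**Figure D2:**
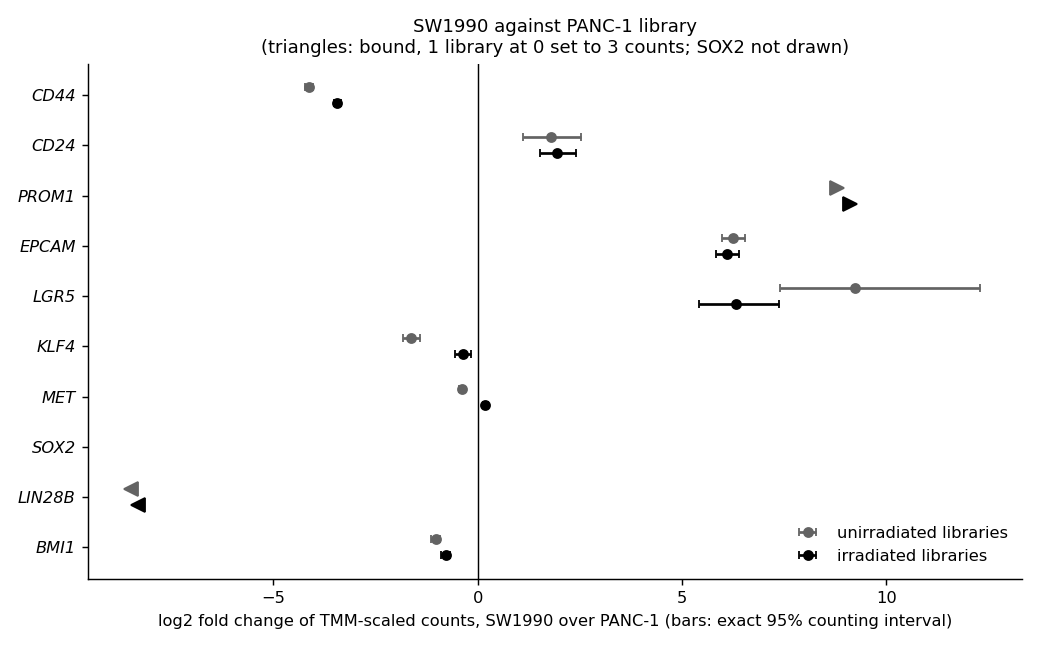
Points give the log2 fold change of TMM-scaled counts, SW1990 over PANC-1 (x axis), for each marker (y axis) in the unirradiated (grey) and irradiated (black) pair, 1 library per line and treatment, with exact 95% counting intervals as bars. Triangles are bounds for PROM1 and LIN28B, each at 0 counts in 1 line, and MET is the marker whose points lie on both sides of 0.

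After radiation, CD24 was the one marker past the 2-fold limit in SW1990. Its counts went from 74 to 202, a 2.72-fold difference (log2 fold change 1.44, interval 1.05 to 1.85), and 1.48 from the FPKM values. Of the 8 markers tested in the pair of SW1990 libraries it was the 1 called, where 4.13% of 15731 genes were called, 2.26% higher and 1.88% lower after radiation. LIN28B and SOX2 were at 0. The test compares these 2 libraries, not the conditions. With a coefficient of variation of 0.2 assumed between replicates, CD24 was not called. In PANC-1, CD24 had under 1 FPKM in both libraries and was not tested. Its 24 and 54 counts there gave a log2 fold change of 1.3 with an interval of 0.58 to 2.06.

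The sequence before the most 5′ of 3 RefSeq starts of CD24 is shown because CD24 was the marker called, and that of KLF4 because its values lay on opposite sides of 0 in the lines. Each covers the 250 bases before a RefSeq transcript start (GRCh38.p14, chr6:106975628-106975877 and chr9:107489770-107490019, both minus strand, printed 5′ to 3′ along the gene), and capitals mark the GC box (GGGCGG), the CCAAT motif, the TATA motif (TATAAA) and an E-box (CACGTG), searched on both strands.
CD24: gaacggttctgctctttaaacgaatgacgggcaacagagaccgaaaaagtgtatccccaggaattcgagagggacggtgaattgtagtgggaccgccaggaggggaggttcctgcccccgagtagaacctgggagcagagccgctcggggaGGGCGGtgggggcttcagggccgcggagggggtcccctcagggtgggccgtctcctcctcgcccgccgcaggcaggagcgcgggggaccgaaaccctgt
KLF4: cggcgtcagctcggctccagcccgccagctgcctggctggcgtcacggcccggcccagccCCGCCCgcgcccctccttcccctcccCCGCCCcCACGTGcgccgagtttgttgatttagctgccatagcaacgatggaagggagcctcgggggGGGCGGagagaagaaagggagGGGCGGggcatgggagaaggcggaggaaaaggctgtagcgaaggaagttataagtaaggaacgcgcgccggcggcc
The CD24 window held 1 GC box, 99 bases before the start, and was 65.6% G and C. Of the other two CD24 starts, one (chr6:106974040-106974289) had a GC box 71 bases and a CCAAT motif 35 bases before it, and one (chr6:106975466-106975715) had none of these motifs. The KLF4 window held 4 GC boxes and 1 CACGTG, which lies next to a GC box without overlap, and was 69.2% G and C. RefSeq promoters were matched for 8 markers, with 15 starts in all (EPCAM and LGR5 not matched). GGGCGG was found before 10 of these 15 starts and in 42.6% of 35116 promoters of the same length, and CCAAT before 4 of 15 and in 32% of all. CACGTG was found before 3 of 15 starts and in 6.34% of all promoters, and TATAAA before 0 of 15 and in 10.7% of all. These are matches of letters and do not show binding.

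The other markers of SW1990 stayed within 2-fold, and the intervals of CD44, PROM1, KLF4, MET and BMI1 lay wholly above 0. The log2 fold change of CD44 was 0.62 (0.50 to 0.73), that of PROM1 0.45 (0.34 to 0.56), that of KLF4 0.48 (0.25 to 0.72) and that of BMI1 0.19 (0.05 to 0.32). LGR5, at 1078 and 768 counts, was the marker with a value below 0, at -0.50 (-0.63 to -0.36). For MET it was 0.11 (0.05 to 0.17) and for EPCAM 0.03 (-0.01 to 0.08). Over the 8 markers tested, 7 values were above 0 (7762 of 15731 over all genes), among them BMI1, which had -0.53 from the FPKM values. The median log2 fold change was 0.32 and the median absolute value 0.47. Over all genes tested the median was -0.01, the median absolute value 0.24.

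In PANC-1 none of the 6 markers tested was called, in a pair of libraries where 4.7% of 15159 genes were called, 2.36% higher and 2.35% lower (357 and 356 genes, but 455 higher and 283 lower with libraries scaled by total counts). KLF4 had the largest difference of these 6, from 899 to 485 counts, a log2 fold change of -0.76 (-0.92 to -0.60). MET followed at -0.46 (-0.51 to -0.40), but had 0.27 from the FPKM values. LIN28B had -0.16 (-0.28 to -0.04), or -0.068 with scaling by total counts and -0.073 from the FPKM values. CD44 had -0.06 (-0.09 to -0.03), or 0.031 with scaling by total counts, and BMI1 had -0.04 (-0.14 to 0.05), or 0.047 with that scaling. EPCAM, at 108 and 113 counts, had 0.20 (-0.20 to 0.59). Over these 6 markers the median was -0.11 and the median absolute value 0.18, beside -0.02 and 0.27 over all genes tested. LGR5 had 2 and 10 counts, a ratio of 5.47 with an interval of 1.17 to 51.4, and PROM1 had none.

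**Figure D3:**
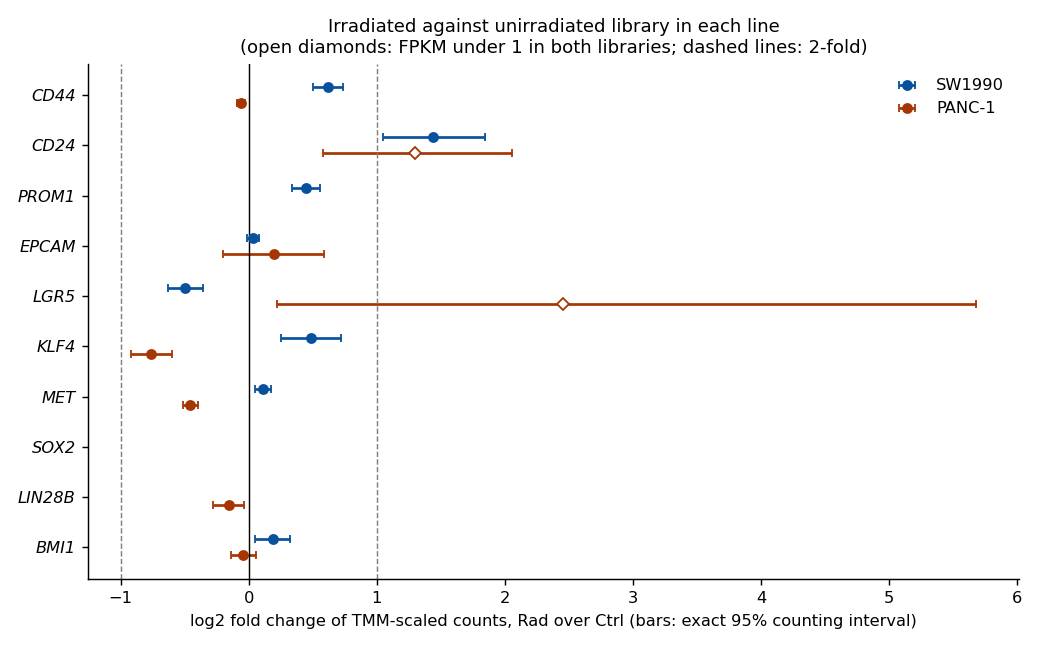
Points give the log2 fold change of TMM-scaled counts, Rad over Ctrl (x axis), for each marker (y axis) in SW1990 (blue) and PANC-1 (orange), 1 library per condition, with exact 95% counting intervals as bars. Markers with 0 counts in a library of the pair are not drawn. CD24 in SW1990 is at 1.44, and KLF4 lies at 0.48 in SW1990 and -0.76 in PANC-1.

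The fit of all 4 libraries tested the average effect of radiation over the 2 lines, not whether the lines responded alike. It called 0 of 18180 genes at an adjusted p under 0.05 (edgeR), so 0% of all genes, while 833 had an unadjusted p under 0.05 and DESeq2's Wald test called 39. CD24 had a log2 fold change of 1.39 with a standard error of 0.34 (unadjusted p = 0.0107, adjusted p = 0.936 by edgeR), and was higher in the irradiated library in 2 of 2 lines. The other markers in this fit had values between -0.16 for MET and 0.47 for PROM1, with adjusted p between 0.936 and 0.996. Those of PROM1 and LIN28B rest on 1 line, since the other line had 0 counts.

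The values of KLF4, CD44, MET, BMI1 and LGR5 after radiation lay on opposite sides of 0 in the lines. For KLF4 the difference of the log2 fold changes, SW1990 minus PANC-1, was 1.24 (0.96 to 1.52), and 1.20 from the FPKM values. CD44 had a difference of 0.67 (0.55 to 0.79) and MET of 0.57 (0.48 to 0.65), but that of MET was -0.13 from the FPKM values. For BMI1 it was 0.23 (0.07 to 0.39) from the counts and -0.25 from the FPKM values. For CD24 it was 0.14 (-0.65 to 0.93) and for EPCAM -0.16 (-0.55 to 0.22). LGR5, with 2 counts in PANC-1 Ctrl, had the widest interval, -2.95 (-5.14 to -0.75). These differences were not tested, since 1 library per condition leaves no residual degree of freedom for them. Among all 13228 genes tested in both lines, 13.3% had counting intervals on opposite sides of 0. Of the markers tested in both lines (CD44, EPCAM, KLF4, MET and BMI1), KLF4, CD44 and MET did. LGR5 had such intervals too (-0.63 to -0.36 in SW1990, 0.22 to 5.68 in PANC-1), but was not tested in PANC-1. The value of CD44 in PANC-1 was 0.031 with scaling by total counts.

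Counts and FPKM, both deposited by the authors, parted for BMI1 in SW1990 and MET in PANC-1. In SW1990 BMI1 had a log2 fold change of 0.19 from the counts and -0.53 from the FPKM values, and in PANC-1 MET had -0.46 and 0.27. A count divided by the FPKM value and the library size corresponds to a transcript length, which for BMI1 in SW1990 was 1310 bases in Ctrl and 2106 in Rad, a ratio of 1.61. For MET in PANC-1 it was 5741 and 3678 bases, a ratio of 0.641. For KLF4 and PROM1 the ratio lay between 1 and 1.07 wherever it could be formed. It was 1.25 for BMI1 in PANC-1, and in SW1990 0.884 for CD44 and 0.854 for LGR5. The remaining ratios lay between 0.954 and 1. Of all genes with more than 3 counts in both libraries, 13.5% in SW1990 and 15% in PANC-1 had opposite signs in the 2 units, and 5.19% and 5.33% differed by more than 0.5 on the log2 scale. The direction of BMI1 in SW1990 and of MET in PANC-1 depends on the unit, as does that of CD44 in PANC-1 (-0.06 from the counts, 0.032 from FPKM). For MET in SW1990 (0.11 and 0.14) and BMI1 in PANC-1 (-0.04 and -0.27) both units had the same sign, and the part that the mix of transcripts plays was not tested.

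**Figure D4:**
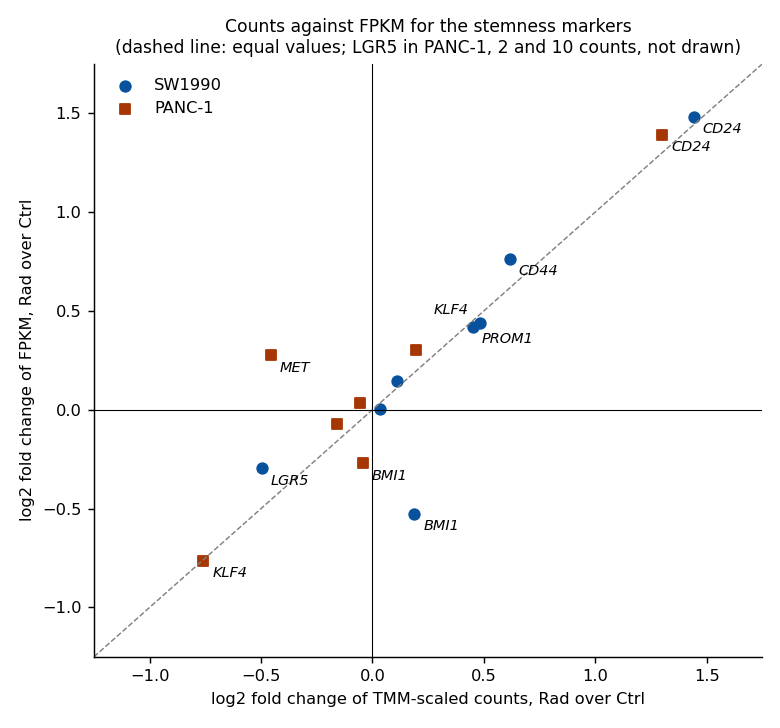
Each point is 1 marker in 1 line, with the log2 fold change, Rad over Ctrl, of TMM-scaled counts on the x axis and of FPKM on the y axis, 1 library per condition, and the dashed line marks equal values. CD24 and KLF4 lie near the line, BMI1 in SW1990 lies below it and MET in PANC-1 above it.

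The pathway of each marker was then examined with lists of related genes. Of all genes tested, 4.13% were called after radiation in SW1990 and 4.7% in PANC-1, which is less than 1 gene in any of these lists, so 0 or 1 call in a list is near the background. A gene under 1 FPKM in 1 library of a pair was tested only because it was higher in the other, and its call supports nothing. Around CD44 (19 genes: hyaluronan enzymes, linkers to the cytoskeleton, proteases, splicing factors), 12 were tested after radiation in SW1990 and 1 was called (8.33%). HAS3, a hyaluronan synthase, rose from 50 to 205 counts (log2 fold change 2.03, interval 1.58 to 2.51). In FPKM it went from 1.19 to 2.21, which is under 2-fold, so its call depends on the unit. HAS3 had 852 and 1111 counts in PANC-1 (0.51), where 0 of 12 were called. The cytoskeletal linker EZR was the most abundant, at 212, 225, 135 and 127 FPKM. Its relative MSN, moesin, had 0 and 4 counts in SW1990 and 12376 and 10530 in PANC-1, at least 3664-fold lower in SW1990 Ctrl. Between the unirradiated lines 7 of 14 genes were called (50%, beside 35.9% of all genes), 3 higher in SW1990 and 4 higher in PANC-1. As with the markers themselves, genes that reached 1 FPKM in 1 line alone were favored to differ, here and in the lists that follow.

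Around EPCAM (12 genes: its proteases, partners and paralog), 0 of 12 genes in SW1990 and 0 of 11 in PANC-1 were called after radiation, beside 4.13% and 4.7% of all genes. The median log2 fold changes were 0.13 and -0.12. CTNNB1, β-catenin, had 120.4, 138, 69.1 and 99.3 FPKM, and FHL2, a partner of the EPCAM intracellular domain, 23.3, 31.9, 122 and 104 FPKM. Among 22 other surface and transporter markers of stem-like cells, 0 of 12 were called in each line. ITGB1, integrin β1, had 53.3, 49.0, 303 and 245 FPKM, and the tetraspanin CD9 had 117, 129.7, 56.0 and 63.5 FPKM. Between the unirradiated lines 13 of these 14 genes were called, 5 higher in SW1990 and 8 higher in PANC-1, beside 35.9% of all genes. ABCB1, the multidrug transporter, had 5365 and 6314 counts in SW1990 and 0 in PANC-1, while AXL, a receptor kinase, had 38 and 48 counts in SW1990 and 14409 and 12060 in PANC-1 (both named after their values were seen).

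The genes around LGR5 (13 genes: other LGR receptors, R-spondins, their E3 ligases and Wnt-dependent stem cell genes) differed between the lines in both directions. Of 7 tested in the unirradiated pair, 7 were called, 6 higher in SW1990 and LGR4 higher in PANC-1, beside 35.9% of all genes. Of these ASCL2, AXIN2, LGR6, RNF43 and TNFRSF19 were under 1 FPKM in PANC-1 Ctrl and entered through SW1990 alone, so the filter favored their calls. AXIN2, a Wnt target that restrains the pathway, had 12776 and 10327 counts in SW1990 and 24 and 51 in PANC-1, or 223, 172, 0.415 and 0.618 FPKM. RNF43, an E3 ligase that removes Wnt receptors, had 7515 and 6351 counts in SW1990 and 10 and 4 in PANC-1. After radiation 2 of 7 were called in SW1990 (28.6%, beside 4.13% of all genes), in opposite directions. ASCL2, a transcription factor of intestinal stem cells, fell from 1493 to 719 counts (log2 fold change -1.06, interval -1.19 to -0.93), and LGR6 rose from 130 to 279 counts (1.10, 0.79 to 1.41). In FPKM ASCL2 went from 36.7 to 17.3 and LGR6 from 3.59 to 6.24. The FPKM difference of LGR6 is under 2-fold, so its call depends on the unit. Of the others, which were not called, AXIN2 (-0.31), RNF43 (-0.25) and ZNRF3 (-0.11) had values below 0, and LGR4 (0.40) and TNFRSF19 (0.55) above 0. In PANC-1 ASCL2 had 0 counts and 2 genes of the list were tested, with 0 called.

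Around MET (15 genes: HGF, its activators and their inhibitors, adaptors, the related receptor MST1R) GRB2 was called in SW1990, 1 of 12 tested (8.33%, beside 4.13% of all genes). GRB2, the adaptor that links receptors to RAS, fell from 1755 to 722 counts (log2 fold change -1.29, interval -1.42 to -1.16). In PANC-1 it had 1736 and 957 counts (-0.73) and 0 of 9 genes were called, beside 4.7% of all. HGF itself had 0 counts in SW1990 and 10 and 4 in PANC-1 (named after its values were seen). SPINT2, an inhibitor of HGF activation, was the most abundant at 137, 155, 239 and 287 FPKM, and PLXNB2, a semaphorin receptor, had 113, 119.6, 18.0 and 30.5 FPKM.

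The families of the transcription factors were examined next. Of 16 other KLF genes, 0 of 12 in SW1990 and 0 of 10 in PANC-1 were called after radiation, beside 4.13% and 4.7% of all genes. KLF5 had 64.2 and 68.8 FPKM in SW1990 and 0.742 and 0.730 in PANC-1, and KLF6 had 13.4, 13.4, 31.7 and 28.9 FPKM. Of 18 other SOX genes, 0 of 6 were called in SW1990 and 2 of 6 in PANC-1. There SOX21 rose from 64 to 172 counts (log2 fold change 1.56, 1.13 to 1.99) and SOX18 from 14 to 57 counts (2.16, 1.29 to 3.11), both at 0 counts in SW1990. SOX21 went from 0.793 to 2.46 FPKM and SOX18 from 0.247 to 1.21, so both entered through the irradiated library alone and their calls were favored by the filter. SOX9, a ductal factor, had 97.4, 54.0, 45.3 and 37.7 FPKM, and SOX13 had 15.7, 21.1, 7.49 and 13.2 FPKM. Of 15 pluripotency genes 4 were tested in each line, and 0 were called in SW1990 and 1 in PANC-1. TERT, the catalytic subunit of telomerase, rose there from 40 to 87 counts (log2 fold change 1.25, 0.70 to 1.83), with 51 and 54 counts in SW1990. It had 0.339 and 2.89 FPKM in PANC-1 and likewise entered through the irradiated library. TBX3 had 51.1, 49.9, 5.31 and 6.86 FPKM and DNMT3B 4.58, 5.69, 3.66 and 4.39 FPKM, while PRDM14, ZFP42, UTF1, DPPA4 and DPPA2 had 0 counts in all 4 libraries.

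LIN28B keeps let-7 low and is itself a let-7 target, so the seed and its matches are shown. The mature sequence (RefSeq) has bases 2 to 8, the seed, in capitals, and the windows of 25 bases after the LIN28B stop codon (GRCh38, chromosome 6, plus strand) have CTACCTC, the match to that seed, in capitals.
let-7a-5p: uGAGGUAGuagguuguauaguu
chr6:105078816-105078840: ggttgcaaagtCTACCTCatgcaag
chr6:105081243-105081267: gatgatagtaaCTACCTCtgagttt
chr6:105081425-105081449: acagcaaaaggCTACCTCatagttg
chr6:105082864-105082888: gatggtgttgaCTACCTCttgaatc
The principal LIN28B transcript of GENCODE release 29 held 4 such matches in 4549 bases after the stop codon. Of 19132 genes 8.58% held at least 1 and 0.0627% at least 4. The other 9 markers held 0. In the list of let-7 factors and targets, TRIM71 held 6, HMGA2 and IGF2BP1 4 each and CDC25A 2 (named after their values were seen). They did not go one way between the lines. HMGA2 had 1033 and 795 counts in SW1990 and 7540 and 4737 in PANC-1, and IGF2BP1 had 10 and 12 counts in SW1990 and 4589 and 3957 in PANC-1. TRIM71, by contrast, had 6 and 12 counts in SW1990 and 0 in PANC-1, and CDC25A had 1162 and 1591 counts in SW1990 and 695 and 862 in PANC-1, 1.88-fold higher in SW1990 Ctrl without being called. In the whole list of 16 let-7 processing factors and targets, 4 of 14 genes were called between the unirradiated lines, all 4 higher in PANC-1 (28.6%, beside 35.9% of all genes). After radiation 0 of 13 were called in SW1990 and 0 of 14 in PANC-1, beside 4.13% and 4.7%. HMGA1 had 151, 185, 197 and 193 FPKM and CCND1 178, 196, 89.6 and 119.6 FPKM.

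Around BMI1, all 19 other subunits and partners of Polycomb repressive complex 1 were tested in each comparison. After radiation 0 of 19 were called in either line, beside 4.13% and 4.7% of all genes. The median log2 fold changes were -0.14 in SW1990, where 14 of 19 values were below 0 (7969 of 15731 over all genes), and -0.09 in PANC-1, where 10 of 19 were (7838 of 15159). Between the unirradiated lines 5 of 19 were called, 26.3% beside 35.9% of all genes. The 4 higher in SW1990 were CBX2, CBX8, KDM2B and PCGF5, and the 1 higher in PANC-1 was PHC2. PHC2 had 33.6, 34.4, 78.5 and 63.3 FPKM and CBX6 28.9, 27.3, 33.4 and 40.5 FPKM.

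**Figure D5:**
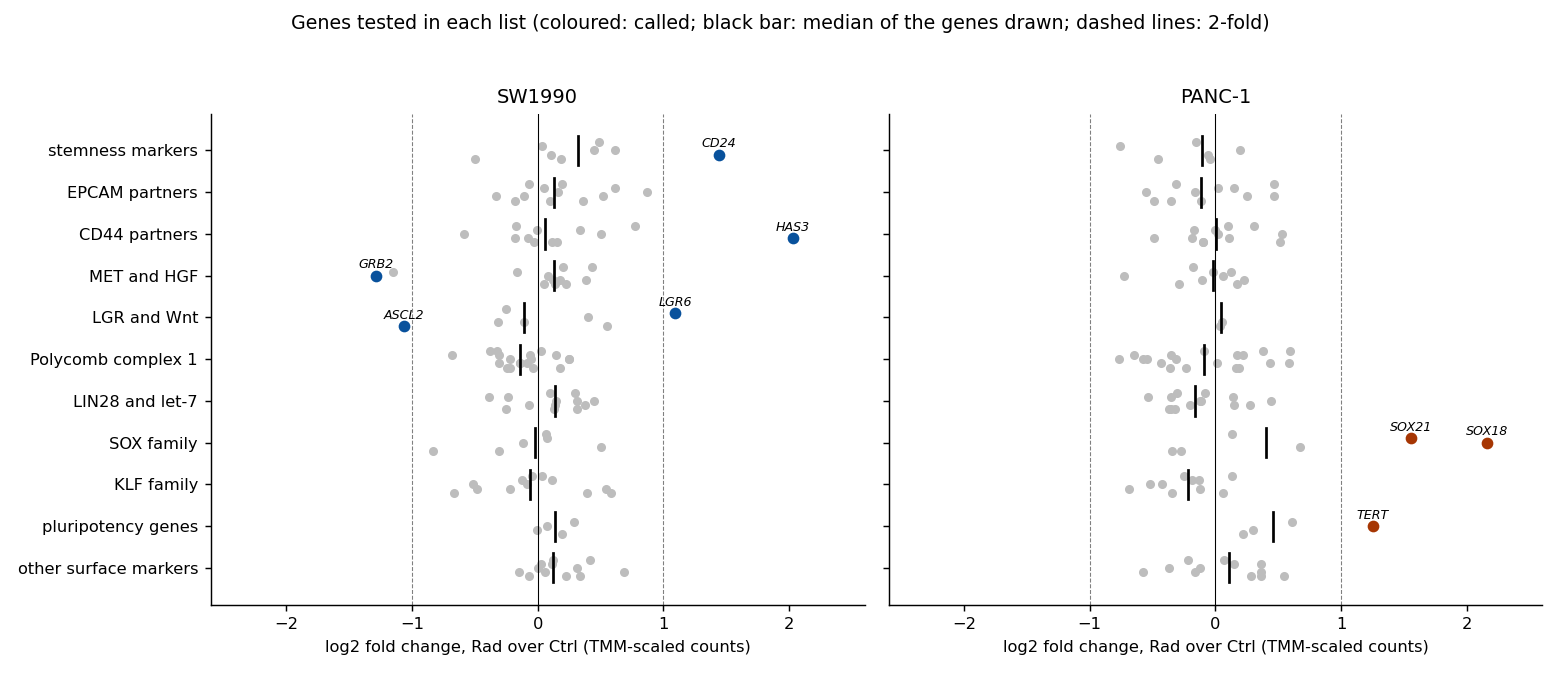
Each point is 1 gene tested in the irradiated against the unirradiated library, SW1990 on the left and PANC-1 on the right, with its log2 fold change on the x axis and its list on the y axis, 1 library per condition. Called genes are colored and named, and the black bar is the median of the list. In the lists of related genes, HAS3, LGR6, ASCL2 and GRB2 were called in SW1990 and SOX18, SOX21 and TERT in PANC-1.

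Among the lists for cell identity, 0 of 9 ductal and epithelial markers in SW1990 and 0 of 7 in PANC-1 were called after radiation, beside 4.13% and 4.7% of all genes. Of the 7 tested in PANC-1, 5 had values above 0 and 2 below. CLDN4, a member of the list under 1 FPKM in both PANC-1 libraries, was not tested there. It had 96 and 9 counts (log2 fold change -3.28, -4.46 to -2.30). ZEB1, a repressor of epithelial genes, rose in SW1990 from 14 to 66 counts (log2 fold change 2.23, 1.38 to 3.18), or from 0.314 to 1.33 FPKM, so it entered through the irradiated library alone, and had 1394 and 1084 counts in PANC-1. PDGFRB fell in SW1990 from 129 to 63 counts (-1.04, -1.50 to -0.60), or from 1.56 to 1.03 FPKM, which is under 2-fold. Both are low in that line. The part of these genes in the values of the stemness markers was not tested.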

How the data were processed

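The deposited table holds, for each gene and library, a read count without normalization and an FPKM value. According to the supplementary methods, the authors trimmed reads with Trimmomatic 0.36, aligned them to GRCh38 with HISAT2 2.0 and computed FPKM with StringTie 1.3.3b. The tool behind the counts is not given in the sources used here. The methods name an mRNA kit, and the sample records name removal of ribosomal RNA. Of 59263 rows, 1089 loci that name no gene (between 0.453% and 0.635% of the counts) were left out, and 57836 of 58174 genes were found in GENCODE release 29, 96.9% with the same coordinates.

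In pairs of libraries, counts were compared with edgeR 4.0.16 (R 4.3.3) by exactTest at dispersion 0, with libraries scaled by TMM. Genes that reached 1 FPKM in 1 of the 2 libraries were tested, p-values were adjusted by Benjamini-Hochberg to q, and a call needed q under 0.001 and more than 2-fold in TMM-scaled CPM (a value of 0 was replaced by 0.01). Such a test compares libraries, not conditions. Fold changes carry exact Clopper-Pearson 95% intervals of the counts, and differences between responses a normal interval. All 4 libraries were also fitted with edgeR's quasi-likelihood test (cell line and treatment as terms, filterByExpr), which estimated a common coefficient of variation of 0.218. DESeq2 1.42.0 and limma 3.58.1 were used as alternatives. In simulated counts, 200 genes with enough expected reads were given 4-fold changes. The test of read counts called 198 of them (SW1990, 15731 genes), 197 (PANC-1, 15159 genes) and 199 (line against line, 16626 genes). There were 0 false calls in each. Those counts were drawn with counting error alone, as this test assumes, so the result does not show how it behaves with spread between replicates. The fit of 4 libraries (18180 genes) called 200 of 200 for line and for radiation, with 8 and 6 false calls. Its simulated spread was smaller than the 0.218 estimated from the data.

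The markers, the lists of related genes and the tests were chosen with earlier results of these data known. The genes named are all 10 markers and, of each list, those called after radiation in either line and the 2 with the highest mean FPKM. The names CDH1, KRT7, CLDN4, ABCB1, AXL, MUC1, LGR4, ZNRF3, TNFRSF19, HGF, TRIM71, CDC25A, HMGA2, IGF2BP1, CBX2, CBX8, KDM2B and PCGF5 and genes given at 0 counts were added after their values were seen. Primers were read from the study's supplementary text, promoters and miRNAs from RefSeq (GRCh38.p14).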

Additional observations from a re-analysis of the deposited data

Results flagged for a closer look

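KLF4, CD44, MET, BMI1 and LGR5 were singled out because their counts after radiation went opposite ways in the lines. The difference of the log2 fold changes, SW1990 minus PANC-1, was 1.24 for KLF4, 0.67 for CD44, 0.57 for MET, 0.23 for BMI1 and -2.95 for LGR5, and it was not tested. KLF4 kept its direction in each line under every scaling and in the FPKM values (0.44 and -0.77). CD44 in PANC-1 had -0.06, 0.031 with total-count scaling and 0.032 from the FPKM values. MET in PANC-1 had -0.46 from the counts and 0.27 from the FPKM values. BMI1 had 0.19 in SW1990 and -0.04 in PANC-1 from the counts, and -0.53 and -0.27 from the FPKM values. LGR5 had 1078 and 768 counts in SW1990 and 2 and 10 in PANC-1, where it was under 1 FPKM and not tested.

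The read-through gene COMMD3-BMI1, which no comparison of the report uses, had 166 counts in PANC-1 Ctrl and 91 counts in PANC-1 Rad, above the 3 counts that a count of 0 allows, and 0 counts in both SW1990 libraries. Its exons overlap 23.3% of the exon bases of BMI1.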

How the results depend on the processing

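The labels carry no replicate numbers, and the pairing of treatments within a cell line is part of the fit of 4 libraries. No library could be left out either, since a pair then has 1 library and the fit of 4 libraries no residual degree of freedom. The assumed spread between replicates moved the counts of genes. With a coefficient of variation of 0.2 the read test called 99 genes and 0 markers in SW1990 (650 and 1 without it), 103 genes in PANC-1 (713) and 3633 between the unirradiated lines (5975). At 0.4 it called 15 genes and 0 markers in SW1990, 10 genes in PANC-1, and 1637 genes and 5 markers (of 8) between the lines. With a fold limit of 1.5 there were 1456 genes and 2 markers in SW1990 (CD24 and CD44), and 1777 genes and 1 marker (KLF4) in PANC-1. DESeq2's Wald test called 39 genes for radiation over both lines, where edgeR and limma-voom called 0. DESeq2 gave no adjusted p for radiation for CD24, KLF4 and LGR5.

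Directions that turned were those of BMI1 in SW1990 (-0.53 from FPKM), of CD44 in PANC-1 (0.031 with total counts and 0.032 from FPKM), of MET (0.27) from FPKM and BMI1 (0.047) with total counts in PANC-1, and of MET between the lines (0.19 from FPKM, 0.19 in the irradiated libraries, 0.046 with total counts in the fit of 4 libraries), and of LGR5 for radiation in that fit (-0.044 by edgeR, 0.58 by DESeq2). The cause was not tested. Of the other values of single markers under an alternative, 241 kept their direction and their side of the threshold, 11 lost a call (CD24, KLF4 or BMI1) and 2 gained one. Scaling by total counts moved the median of all genes between the unirradiated lines from -0.01 to 0.20. Calls among the markers under 3 further settings (DESeq2's size factors, no filter on FPKM, rows that name no gene kept) did not change. CD24, at 24 to 202 counts, and SOX2, at 6 or fewer, are limited by depth.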

Other observations

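Further genes, chosen after their values were seen, separate the lines in the same way as LGR5. CDX2, a transcription factor of intestinal epithelium, had 3732 and 3045 counts in SW1990 Ctrl and Rad and 4 and 10 counts in PANC-1 Ctrl and Rad. VIL1, the gene of the brush border protein villin, had 3852 and 3434 counts in SW1990 and 5 and 4 in PANC-1. KRT20, a keratin of intestinal epithelium, had 742 and 1282 counts in SW1990 and 2 and 0 in PANC-1. CDX1 had 111 and 75 counts in SW1990 and 0 in PANC-1. OLFM4, a gene of the list around LGR5, did not follow this pattern and had 0 counts in all 4 libraries. ALDH1A1, an aldehyde dehydrogenase that is also used as a marker of stem-like cells, had 0, 4, 0 and 0 counts in SW1990 Ctrl, SW1990 Rad, PANC-1 Ctrl and PANC-1 Rad, so a change in it was not detectable at this depth.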
